A study of Mus musculus with 33 samples.

Results

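The genes described here encode 41 non-collagenous proteins of the extracellular matrix, picked by symbol from the 47729 genes in the deposited count tables, from a list drawn up with earlier results of these data known. They comprise 14 genes of elastic fibres and microfibrils, 8 small leucine-rich proteoglycans, 7 matricellular proteins, 7 basement membrane proteins, 4 lecticans and fibronectin. All 41 were found in the tables, all are annotated as protein-coding, and 40 passed the filter on low counts. The exception was Mfap5, a microfibril glycoprotein gene, which had between 0 and 0.419 CPM (the count of a gene scaled to the size of its library) in every library and was not tested. RNA was measured in 33 libraries of C57BL/6J mouse retinal progenitor cells, the dividing cells of the developing retina, whose source was retina of embryonic day 14. At day 0 the cells were untreated (3 libraries), cone primed with COCO protein (3) or rod primed with taurine and retinoic acid (3). At days 5, 12, 21 and 35 there were 3 libraries of cone induction with COCO protein and 3 of rod induction with taurine and retinoic acid. COCO blocks BMP, Wnt and TGF-beta ligands outside the cell, and retinoic acid acts through nuclear receptors. The labels give neither the medium nor how long the factors were kept in it, and no group went untreated past day 0.

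Matrix glycoproteins form the scaffold outside cells and hold growth factors there. Fibrillins assemble into microfibrils, on which elastin is deposited with the help of fibulins, and latent TGF-beta binding proteins tether inactive TGF-beta to those fibres. Small leucine-rich proteoglycans bind collagen fibrils and shape their thickness. Matricellular proteins such as thrombospondins and tenascins are secreted to modulate adhesion and signalling and have little structural role. Lecticans are the large hyaluronan-binding chondroitin sulphate proteoglycans of brain and retinal matrix, and laminins with nidogens make up basement membranes, including the inner limiting membrane, which lines the vitreal face of the retina and meets the endfeet of Muller glia.

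Gene counts ranged from 7511837 to 19166442 per library, and 32 to 41 of the genes described here had at least 1 count in a library. The detection floor was set at 3 counts, the upper limit left by a count of 0, and was worth 0.174 to 0.407 CPM. Floors and the intervals of count ratios below cover counting error only, since PCR copies carried no molecular identifiers. Unless another model or a left-out library is named, each adjusted p comes from edgeR's quasi-likelihood test. Its Benjamini-Hochberg adjustment runs over the 18150 genes tested. A gene is called at an adjusted p under 0.05 (n = 3 per group). Log2 fold changes carry an approximate standard error, their absolute size divided by the square root of the test's F statistic. The spread behind it was fitted over all 33 libraries. The labels do not say whether the 3 libraries of a group are separate cultures or animals, so p-values measure only the spread between these libraries. In such bulk RNA, fewer cells of a type and less RNA per cell cannot be told apart. Of 10 retinal progenitor markers, 6 were called lower and 2 higher in cone cells at day 35 against primed cells (57.7% of all genes called). In rod cells 4 were called lower and 2 higher (55.6% of all genes called). Their sum did not fall, with 1213 to 1371 CPM in untreated, 1285 to 1437 CPM in cone and 1312 to 1671 CPM in rod libraries of day 35. Pax6 had 541 to 578 CPM in untreated libraries and 356 to 456 and 495 to 682 CPM in cone and rod libraries of day 35. The sum of 6 photoreceptor markers was 927 to 1239 CPM in untreated cells but 30.8 to 51.4 and 25.2 to 29.6 CPM in cone and rod cells at day 35. The cone and rod groups are named here by their treatment.

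The share of gene counts that fell on the 41 matrix genes was small at day 0 and grew many-fold in culture. It was 0.0649% in untreated cells (mean of 3 libraries, range 0.0573% to 0.0738%), 0.0661% in cone primed cells and 0.102% (0.0894% to 0.127%) in rod primed cells. By day 12 it stood at 1.15% in cone cells (1.03% to 1.38%) and 0.666% in rod cells (0.628% to 0.726%), with no overlap between the libraries. At day 35 it was 1.36% (1.15% to 1.46%) and 1.01% (0.724% to 1.32%), and the ranges overlapped. Cone cells of day 35 held the highest group mean for 18 of the 41 genes and rod cells of day 35 for 10. The highest group was not counted over all genes. Ncan, Podn and Tnr were highest in untreated cells, and Mfap5 was too near the floor to be ordered.

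**Figure D1:**
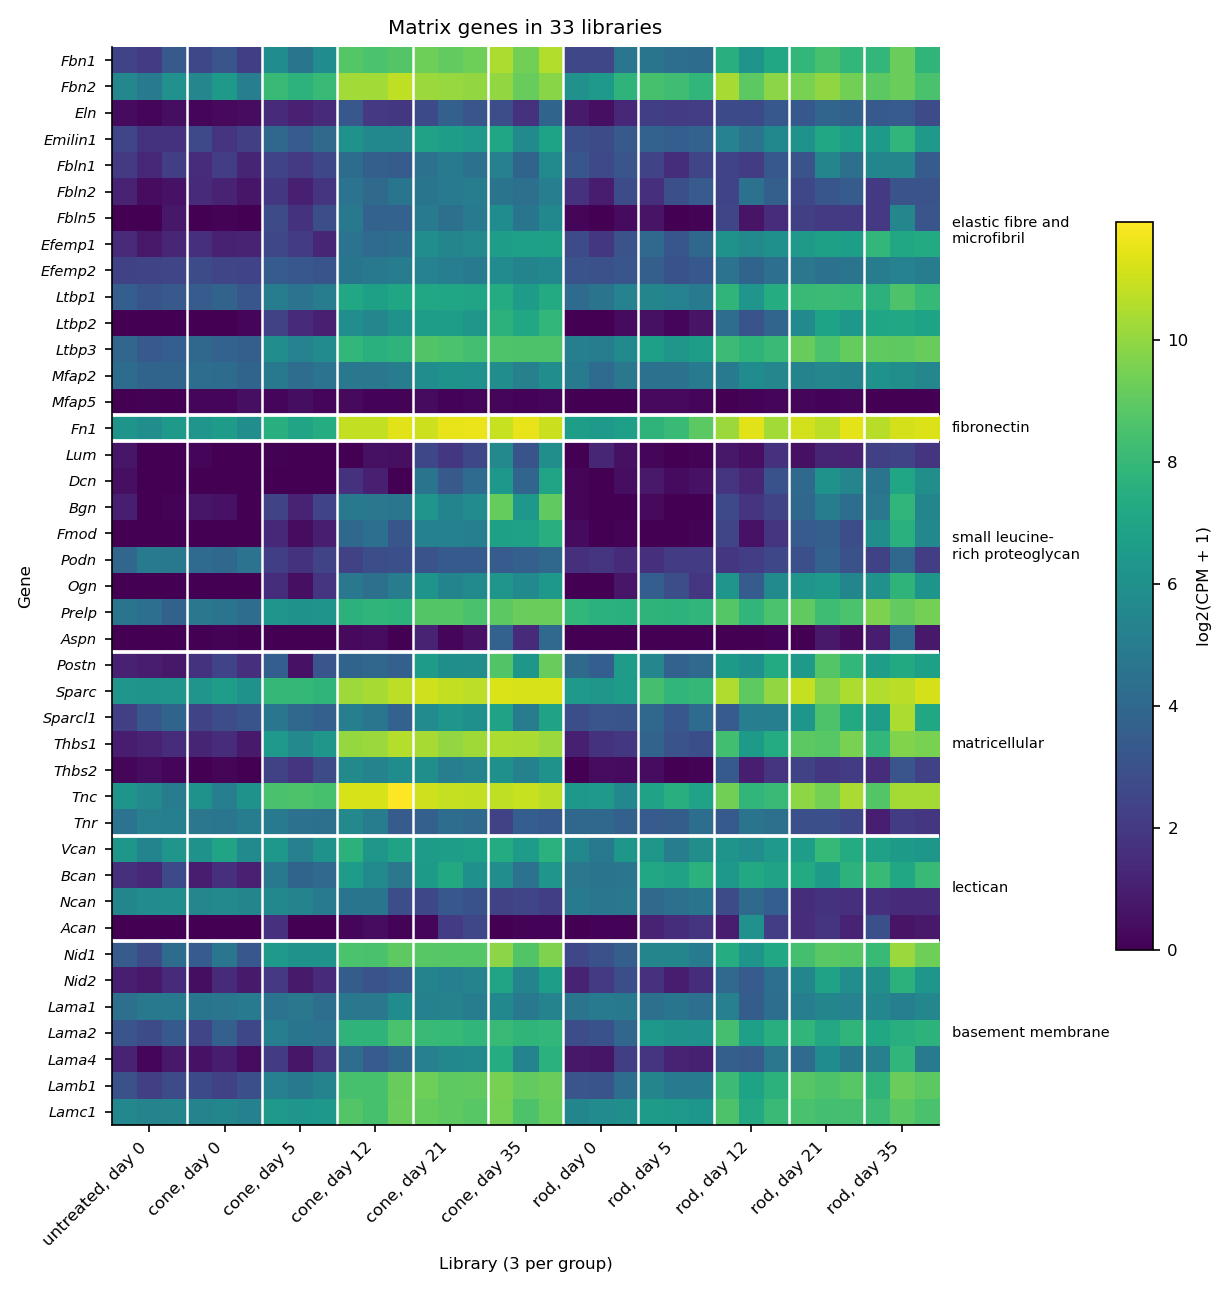
Heat map of log2(CPM + 1) for the 41 genes (rows, by role) in the 33 libraries (columns, by group and replicate). Most rows brighten from the day 0 columns to the day 35 columns, and Ncan and Tnr run the other way. Podn has its highest mean in untreated cells but is brighter in the rod columns of day 35 than in those of rod primed cells.

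Levels of different genes were compared per kilobase of merged exon. In untreated cells Sparc, which encodes a collagen-binding matricellular protein, led with 19.4 ± 0.545 CPM per kb (mean ± SD, n = 3), or 20.9% of the sum over the 41 genes on that scale. Mfap2, a microfibril-associated glycoprotein, followed with 12.2 ± 2.13 CPM per kb, and neurocan (Ncan), a lectican of neural tissue, with 7.21 ± 0.959 CPM per kb. Sparc led again at day 35, with 636 ± 22.1 CPM per kb in cone cells and 485 ± 109 CPM per kb in rod cells. Its neighbours by then were Tnc (233 ± 17.9), Thbs1 (218 ± 25.3) and Fn1 (199 ± 52.0 CPM per kb) in cone cells, whose ranges over libraries overlapped. In rod cells they were Sparcl1 (187 ± 251), Fn1 (186 ± 44.0) and Prelp (184 ± 33.0 CPM per kb). The rank of Sparcl1 in rod cells came from 1 library, described with its values further on.

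Comparison with primed cells of the same condition asked how the matrix genes moved in culture, in which day and treatment run together. By day 5 of cone culture 23 of the 40 genes tested were called, 22 of them higher, while 22.3% of all genes were called, 12.2% higher and 10.2% lower. By day 12 of cone culture 32 were called, 30 of them higher (48.4% of all genes, 26.7% higher and 21.7% lower). By day 21 of cone culture 36 were called, 34 of them higher (52.6% of all genes, 29.4% higher and 23.2% lower). The count stayed at 36, with 34 higher, by day 35 (57.7% of all genes, 31.1% higher and 26.5% lower). Rod culture began with 13 genes called at day 5, all of them higher (17.5% of all genes, 8.76% higher and 8.79% lower). It reached 31 by day 12, 30 of them higher (42.4% of all genes, 24.2% higher and 18.2% lower), and 35 by day 21, 33 of them higher (50.8% of all genes, 27.2% higher and 23.6% lower). By day 35 of rod culture 36 were called, 34 of them higher (55.6% of all genes, 29.4% higher and 26.2% lower). The matrix genes thus had a larger called share than all genes at every day in cone and rod culture, and nearly all of their calls were rises. Their median log2 fold change at day 35 was 4.98 in cone cells, where that of all genes was 0.03, and 4.23 in rod cells, where it was 0.04. With genes at the count floor set to their bound, the rod median was 3.82. Each condition was compared with its own primed cells, and the primed groups themselves differed in several genes, as given below.

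Sorted by role, all 13 elastic fibre genes tested were called higher in cone cells at day 35 and 12 of 13 in rod cells, as were 7 and 8 of 8 small leucine-rich proteoglycans and 6 and 6 of 7 basement membrane genes. Over all genes 31.1% and 29.4% were called higher. Fibronectin (Fn1), the adhesive glycoprotein on which other matrix proteins assemble, went from 71.6, 57.1 and 85.2 CPM in the 3 untreated libraries to 1949, 3031 and 2009 CPM in cone and 1597, 2327 and 2589 CPM in rod libraries at day 35. Sparc went from 74.1, 71.2 and 75.2 CPM to 2504, 2368 and 2352 CPM in cone and 1520, 1688 and 2303 CPM in rod libraries, and every day 35 library lay far above every untreated one. Against primed cells Sparc rose in both conditions (log2 fold change 4.88 ± 0.31, adjusted p = 7.20e-13 in cone and log2 fold change 4.41 ± 0.31, adjusted p = 8.19e-12 in rod cells).

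The 3 largest fitted log2 fold changes in cone cells at day 35 were all in small leucine-rich proteoglycans that were at 0 counts in cone primed cells, so their folds are lower bounds and cannot be ranked against other genes. Fmod (fibromodulin) was at least 430.4-fold higher than in primed cells, and Dcn (decorin), which binds collagen and TGF-beta, at least 235-fold (adjusted p 1.06e-09 and 1.04e-06). Ogn (osteoglycin) was at least 221-fold higher (adjusted p 9.70e-08). In rod cells the 3 largest fitted values were those of Bgn (biglycan), Ltbp2 and Fmod, each with 1 to 3 counts in rod primed cells. Their ratios of scaled counts were 2741 (95% interval 492 to 108300), 1224 (95% interval 419 to 5938) and 905 (95% interval 309.5 to 4391), with adjusted p of 8.16e-08, 4.41e-12 and 5.68e-09. Thbs1 (thrombospondin 1, an activator of latent TGF-beta) had 0.895, 1.27 and 1.90 CPM in untreated cells and rose in both conditions (log2 fold change 9.88 ± 0.59, adjusted p = 2.14e-13 in cone and log2 fold change 8.12 ± 0.55, adjusted p = 4.55e-12 in rod cells).

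Against this direction, 2 neural matrix genes fell in both conditions by day 35. Ncan had 44.3, 53.8 and 57.7 CPM in untreated, 4.10, 4.72 and 3.71 CPM in cone and 2.04, 1.70 and 1.74 CPM in rod libraries of day 35. It fell in cone (log2 fold change -3.46 ± 0.36, adjusted p = 5.96e-09) and in rod cells (log2 fold change -3.87 ± 0.39, adjusted p = 4.74e-09). Tnr (tenascin R, a brain tenascin that binds lecticans) had 22.8, 35.5 and 35.2 CPM in untreated cells, 4.01, 11.0 and 9.36 CPM in cone and 1.02, 3.23 and 2.65 CPM in rod libraries of day 35. It too fell in cone (log2 fold change -1.74 ± 0.43, adjusted p = 0.00101) and rod cells (log2 fold change -2.59 ± 0.48, adjusted p = 4.89e-05). The versican gene Vcan was not called in either condition at day 35 (adjusted p 0.0702 and 0.0789). Lama1, an early laminin chain, had 20.2, 27.6 and 27.5 CPM in untreated and 46.7, 27.2 and 39.3 CPM in cone cells of day 35 (adjusted p 0.125 against cone primed cells). Neuron markers moved with these falls: 6 of 6 were called lower in each condition at day 35 (26.5% and 26.2% of all genes). Their sums were 1036 to 1495 CPM in untreated, 146 to 255 CPM in cone and 59.4 to 73.8 CPM in rod libraries, and none of the 6 was at 0. Their part in the falls was not tested.

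Markers of several other cell types moved with these rises, and those of some others fell. Over all genes, 57.7% were called in cone cells at day 35 (31.1% higher, 26.5% lower). In rod cells 55.6% were called (29.4% higher, 26.2% lower). The astrocyte list (Gfap, S100b, Aldh1l1, Pax2 and Fgfr3) had all 5 genes called higher in each condition at day 35, with sums of 0.867 to 1.90 CPM in untreated, 221 to 333 CPM in cone and 262 to 335 CPM in rod libraries. Gfap was at 0 in untreated cells. Muller glia markers had 6 of 7 called higher in cone cells, and 5 higher with 1 lower in rod cells. The mesenchyme list (collagen I and III genes, Twist1, Prrx1 and 6 others) had 9 of 10 tested genes called higher in each. Mesenchyme sums were 6.00 to 27.1 CPM in untreated, 728 to 4042 CPM in cone and 338 to 814 CPM in rod libraries of day 35, and Twist2 was at 0 in the 3 day 0 groups. All 6 smooth muscle and pericyte genes tested were called higher in each condition, from sums of 1.15 to 2.58 CPM in untreated to 1501 to 2037 CPM in cone and 777 to 1745 CPM in rod libraries, with Cnn1 at 0 in the 3 day 0 groups. Endothelium sums fell, with 319 to 375 CPM in untreated, 130 to 235 CPM in cone and 41.6 to 107 CPM in rod libraries of day 35. Oligodendrocyte lineage sums were 35.4 to 46.1, 8.84 to 12.1 and 4.37 to 9.60 CPM in the same groups. Cdh5, Tie1 and Sox10 of these lists were at 0 in untreated cells. The part of any of these cell types in the rise of the matrix genes was not tested.

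Priming was the first step compared. Between cone primed and untreated cells edgeR called 0 of the 40 matrix genes and 0% of all genes. At an unadjusted p under 0.05 there were 0 matrix genes and 200 of all genes, and DESeq2 and voom also called 0 genes. Between rod primed and untreated cells 10 were called, 9 higher and 1 lower, against 10.3% of all genes (6.71% higher, 3.56% lower). The median log2 fold change of the 40 genes was 1.02, or 0.47 with genes at the floor set to their bound, and that of all genes was 0.00. The genes that rose were Prelp, Bcan, Postn and the 6 elastic fibre genes Ltbp1, Ltbp3, Efemp1, Efemp2, Fbn2 and Fbln2, and the gene that fell was Podn. With the compared libraries only, 28 of the 40 genes passed the filter on low counts. Of those 28, 13 were called, 10 higher and 3 lower, against 19.9% of all genes.

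Prelp (ENSMUSG00000041577, chromosome 1, 133910304 to 133921414, minus strand), a small leucine-rich proteoglycan that anchors basement membranes to the underlying collagen, had the most regular response. It stood at 23.4, 19.4 and 12.2 CPM in untreated, 26.6, 23.5 and 18.6 CPM in cone primed and 239, 200.1 and 188 CPM in rod primed libraries. The rod primed libraries all lay far above the rest, and Prelp rose 11.5-fold (log2 fold change 3.52 ± 0.23, adjusted p = 5.59e-11). Podn (ENSMUSG00000028600, chromosome 4, 108014791 to 108096445, minus strand), which encodes podocan of the same family, did the opposite, with 14.2, 29.2 and 27.2 CPM in untreated, 17.4, 14.9 and 22.4 CPM in cone primed and 2.03, 2.62 and 1.796 CPM in rod primed libraries. Podn fell 11.0-fold (log2 fold change -3.46 ± 0.45, adjusted p = 8.25e-06), with no overlap between libraries.

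Postn (ENSMUSG00000027750, chromosome 3, 54361109 to 54391037, plus strand) encodes periostin, a matricellular protein of connective tissue, and had 1.15, 0.934 and 0.679 CPM in untreated, 2.39, 4.37 and 2.20 CPM in cone primed and 16.6, 10.9 and 92.3 CPM in rod primed libraries. It rose (log2 fold change 5.49 ± 1.03, adjusted p = 0.000787), although the third rod primed library was several times the other two, and with voom quality weights the adjusted p was 0.106. Bcan, the brevican gene, a lectican of adult brain matrix, went from 2.05, 1.53 and 5.37 CPM in untreated to 25.8, 23.2 and 24.8 CPM in rod primed cells and rose (log2 fold change 2.99 ± 0.54, adjusted p = 0.000533). The 3 rod primed libraries agreed closely in Bcan and stood above every untreated library. Efemp1 (fibulin 3, a matrix protein linked to an inherited macular dystrophy) had 1.66, 0.734 and 1.43 CPM in untreated and 5.83, 2.82 and 7.36 CPM in rod primed libraries and rose (log2 fold change 2.13 ± 0.41, adjusted p = 0.00115).

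The latent TGF-beta binding protein genes Ltbp3 (log2 fold change 1.801 ± 0.20, adjusted p = 7.23e-07) and Ltbp1 (log2 fold change 1.56 ± 0.33, adjusted p = 0.00252) also rose with rod priming. Ltbp3 had 14.2, 9.20 and 10.9 CPM in untreated, 15.2, 12.4 and 11.1 CPM in cone primed and 34.2, 32.5 and 50.9 CPM in rod primed libraries, with the rod primed libraries above all others. Smaller or less even rises were called for Efemp2 (fibulin 4; log2 fold change 0.74 ± 0.20, adjusted p = 0.0183), Fbn2 (fibrillin 2, the fibrillin of embryonic microfibrils; log2 fold change 1.43 ± 0.39, adjusted p = 0.0187) and Fbln2 (fibulin 2; log2 fold change 2.33 ± 0.74, adjusted p = 0.0433), whose libraries overlapped. These 3 calls were lost without rod primed replicate 3 (adjusted p 0.1002, 0.305 and 0.444). That of Fbn2 was also lost without untreated replicate 2 (0.104), and that of Fbln2 without rod primed replicate 1 or untreated replicate 2 or 3 (0.0539 to 0.173). With the compared libraries only, Fbn2 and Fbln2 were not called (adjusted p 0.0516 and 0.0551), and with voom quality weights Fbln2 had 0.234.

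**Figure D2:**
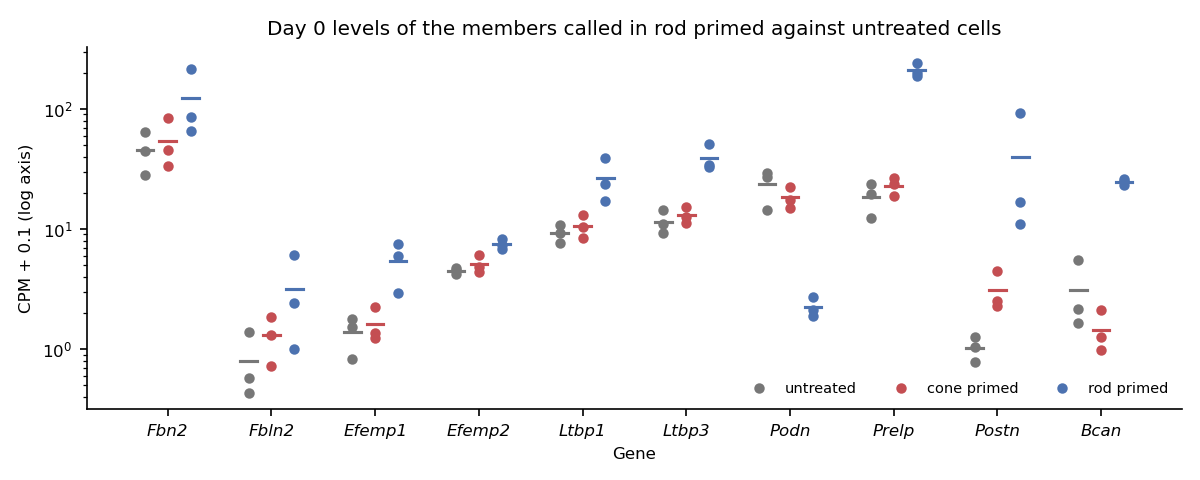
CPM + 0.1 (log axis) of 10 matrix genes in untreated, cone primed and rod primed cells of day 0, with points for the 3 libraries of each group. Prelp, Bcan, Ltbp3 and Efemp1 sit higher and Podn lower in each rod primed library than in any untreated library, and cone primed points overlap untreated points in every gene plotted except Postn, where all 3 lie above.

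The promoter windows of the genes with the largest priming responses are printed with short motifs of transcription factors marked. Which factors carry the responses was not tested. The sequences are from RefSeq on GRCm38.p6, 5′ to 3′ on the gene's strand, and cover the 250 bases before the RefSeq start nearest to the gene's 5′ end in the deposited tables. For Podn that start lies well inside the gene span of the tables. Capitals mark AGGTCA (a nuclear receptor half-site), CAGACA (which holds the core of the Smad binding element) and TATAAA (the TATA box) or their reverse complements, and positions count back from the start.
Prelp, chr1:133921402-133921651, minus strand: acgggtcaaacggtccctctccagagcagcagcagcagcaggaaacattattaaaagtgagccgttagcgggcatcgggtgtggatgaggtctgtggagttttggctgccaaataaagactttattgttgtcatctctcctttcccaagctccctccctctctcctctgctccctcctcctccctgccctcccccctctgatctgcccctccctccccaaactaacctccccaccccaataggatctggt
Postn, chr3:54360857-54361106, plus strand: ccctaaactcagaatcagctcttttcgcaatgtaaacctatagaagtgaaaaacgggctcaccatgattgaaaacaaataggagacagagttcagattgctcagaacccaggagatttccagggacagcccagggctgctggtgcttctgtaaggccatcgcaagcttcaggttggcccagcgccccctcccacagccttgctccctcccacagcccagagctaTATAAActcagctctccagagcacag
Podn, chr4:108031955-108032204, minus strand: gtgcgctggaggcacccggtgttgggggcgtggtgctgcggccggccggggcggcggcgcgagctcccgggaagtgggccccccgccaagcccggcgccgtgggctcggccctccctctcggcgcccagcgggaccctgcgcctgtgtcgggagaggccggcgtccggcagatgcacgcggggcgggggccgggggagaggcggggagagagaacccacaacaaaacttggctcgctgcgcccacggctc

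Of the 3 motifs, these windows held 1 match, TATAAA of Postn at position -26, and the Prelp and Podn windows held 0 matches. AGGTCA lay in windows of other RefSeq starts of Podn and Postn that are not printed. RefSeq windows were found for 29 of the 41 genes, with 38 windows in all because some genes have several starts. On both strands AGGTCA lay in 5 of the 38 windows (13.2%) and in 14.0% of the 32851 windows of all genes, and CAGACA in 9 (23.7%) against 17.1%. The AP-1 site TGANTCA lay in 1 (2.63%) against 6.75%, the TEAD site GGAATG in 4 (10.5%) against 12.6%, TATAAA in 7 (18.4%) against 12.4% and the GC box GGGCGG in 20 (52.6%) against 32.7%. A match in these letters describes the window and shows no binding.

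Cone and rod cells of the same day were then compared. At day 0, 7 of the 40 matrix genes tested were called, 1 higher and 6 lower in cone primed cells, against 7.27% of all genes (2.5% higher, 4.77% lower). By day 5 there were 12, of which 6 were higher and 6 lower in cone cells, against 9.28% of all genes (3.48% higher, 5.8% lower). The most were called on day 12, with 12 higher and 4 lower, 16 in all, against 10.1% of all genes (5.98% higher, 4.12% lower). On day 21 the 8 called genes were 6 higher and 2 lower, against 9% of all genes (5.86% higher, 3.14% lower). Day 35 had 10, of which 7 were higher and 3 lower, against 12.3% of all genes (7.77% higher, 4.51% lower). In the edgeR model of all 33 libraries the share of matrix genes called was thus above that of all genes at each day, and it was 40% at day 12. With voom quality weights the day 0 share was close to that of all genes, with 8 of 40 called against 17.6%. The median log2 fold change of the matrix genes was -1.13 at day 0 and 0.02 at day 5, and at the 3 later days it was 0.61, 0.34 and 0.45. Those of all genes lay between -0.01 and 0.03. Setting genes under the floor to their bound moved the day 0 median to -0.40. With the cone and rod primed libraries alone, only 28 of the 40 genes passed the filter on low counts. Of those 28, 10 were called, 3 higher and 7 lower, against 14.6% of all genes. For the mean of days 5 to 35 the count in the model of all 33 libraries was 25, of which 15 were higher and 10 lower, against 27.8% of all genes (15.6% higher, 12.2% lower). The difference changed with day in 13 genes, against 9.22% of all genes.

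No gene was called in both directions. Of the 27 matrix genes called at any of the 5 days, 17 were called only higher in cone cells, 10 only lower, and 11 were called at 1 day alone. These patterns over days were not counted for all genes, so they have no share to be set against and only describe the list. Thbs2 was called higher in cone cells at each day from 5 to 35, and Efemp1 was called lower at each day from 0 to 21; no other gene was called at 4 days. The count of 16 on day 12 became 10 without cone replicate 3, 8 without rod replicate 2 and 9 without rod replicate 3. Rod replicate 2 of day 12 stood apart in cell markers, with a photoreceptor sum of 769 CPM against 74.5 and 142 CPM in the other rod libraries and a neuron sum of 636 CPM against 207 and 238 CPM. It also had the lowest matricellular sum of the 3, with 942 CPM against 2607 and 1674 CPM. The part of these markers in the day 12 differences was not tested. The day 12 count was 6 of 38 tested in a model of the compared libraries only (2.27% of all genes). The count on day 0 became 4 without rod primed replicate 3, and that on day 21 became 4 without cone replicate 2 or 3 or rod replicate 2 or 3. On day 35 it was 6 without cone replicate 2 and 5 without rod replicate 1.

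**Figure D3:**
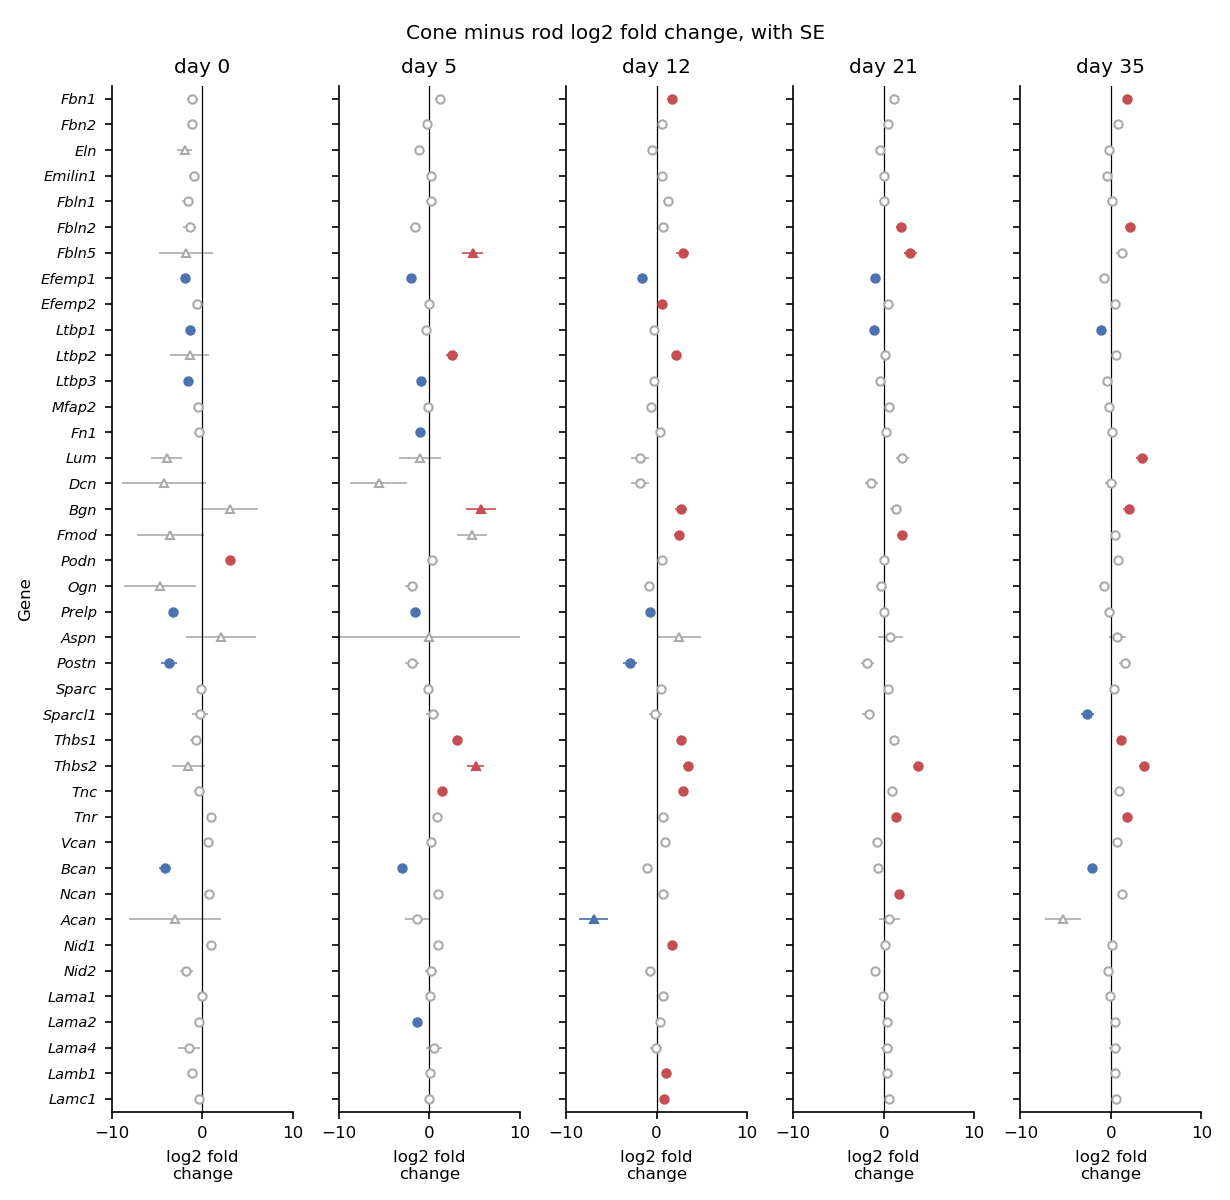
Log2 fold change of cone over rod cells for each matrix gene (rows, by role) at days 0, 5, 12, 21 and 35 (panels), with bars for the approximate standard error. Filled red points are called higher in cone cells and filled blue points lower, open grey points are not called, and triangles mark comparisons in which a group was at the count floor; red points of the thrombospondins and Tnc and blue points of Efemp1, Prelp and Bcan recur across panels.

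Of the 7 matricellular genes, Thbs1, Thbs2, Tnc and Tnr were called higher in cone cells on average over days, and Postn and Sparcl1 lower (27.8% of all genes were called). The Sparcl1 call was lost without any 1 of 7 libraries (adjusted p 0.0534 to 0.201), and without rod day 35 replicate 2 its log2 fold change was -0.48. In cone libraries of day 12 the summed level of the 7 matricellular genes was 5697 ± 1417 CPM, against 1741 ± 834 CPM in rod libraries (mean ± SD, n = 3), with no overlap. At day 35 it was 6052 ± 255 and 4130 ± 1542 CPM. Sparc, the most abundant per kilobase in untreated cells and at day 35, was not called at any day.

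Thbs2 (ENSMUSG00000023885, chromosome 17, 14665500 to 14694262, minus strand) encodes thrombospondin 2, which inhibits angiogenesis and is made by fibroblasts and astrocytes. At day 5 it had 3.94, 2.55 and 5.70 CPM in cone and 0.337, 0 and 0.0694 CPM in rod libraries. The rod group lay under the floor, so that cone cells exceeded it at least 16.1-fold (adjusted p = 0.000588). At day 12 the values were 51.3, 40.1 and 54.8 CPM in cone and 9.57, 1.02 and 2.45 CPM in rod libraries (log2 fold change 3.49 ± 0.51, adjusted p = 4.14e-05). The first rod library of day 12 was the closest to the cone range and still several times below it. At day 21 Thbs2 had 60.9, 33.7 and 39.4 CPM against 3.94, 2.86 and 3.19 CPM (log2 fold change 3.74 ± 0.52, adjusted p = 2.64e-05). At day 35 it had 62.8, 37.2 and 68.1 CPM against 1.87, 7.76 and 4.13 CPM (log2 fold change 3.61 ± 0.51, adjusted p = 2.50e-05). Cone and rod libraries did not overlap at any of these days, and the fold was 11.2, 13.3 and 12.2 on days 12, 21 and 35. With the compared libraries only, the day 12 call was lost (adjusted p 0.0678).

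Thbs1, on the same scale, was already 86.8, 48.5 and 77.9 CPM in cone and 12.9, 7.22 and 6.39 CPM in rod libraries at day 5 (log2 fold change 3.04 ± 0.43, adjusted p = 3.00e-05). At day 12 it had 1067, 1137 and 1560 CPM against 326, 90.4 and 159.9 CPM (log2 fold change 2.71 ± 0.40, adjusted p = 3.93e-05), and no libraries overlapped. By day 35 rod cells had come closer, with 1439, 1382 and 1149 CPM in cone against 241, 832 and 752 CPM in rod libraries (log2 fold change 1.12 ± 0.38, adjusted p = 0.0496). The difference in Thbs1 changed with day (adjusted p = 0.00544 by an F test over the 5 days, or 0.118 with voom quality weights). The day 35 call was lost without any 1 of the 3 cone libraries, rod replicate 1 or rod replicate 3 (adjusted p 0.0626 to 0.256), and with the compared libraries only (0.144) or the replicate number as a block (0.0577).

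Tnc (ENSMUSG00000028364, chromosome 4, 63959785 to 64047015, minus strand) encodes tenascin C, an adhesion-modulating glycoprotein of developing and wounded tissue. Its cone libraries had 361, 389 and 351 CPM at day 5, against 118, 177 and 118 CPM in rod libraries (log2 fold change 1.42 ± 0.39, adjusted p = 0.0207). At day 12 cone libraries had 2385, 2423 and 3946 CPM and rod libraries 681, 232 and 272 CPM, a 7.39-fold difference (log2 fold change 2.89 ± 0.41, adjusted p = 2.99e-05). At both days every rod value lay below every cone value of the same day. At day 35 Tnc had 1798, 1955 and 1678 CPM against 433, 1296 and 1295 CPM and was not called (adjusted p = 0.169), as at day 21 (adjusted p = 0.122). The difference changed with day (adjusted p = 0.00609). Tnr was called higher in cone cells at day 21 (11.8, 18.2 and 16.0 CPM against 6.64, 6.56 and 4.89 CPM; log2 fold change 1.36 ± 0.43, adjusted p = 0.0476) and at day 35, where the values are given above (log2 fold change 1.803 ± 0.48, adjusted p = 0.0126). The Tnc call at day 5 was lost without cone replicate 2 or rod replicate 1 or 3 (adjusted p 0.0505 to 0.107). That of Tnr was lost at day 21 without any 1 of the 6 libraries (0.0562 to 0.170) or with the replicate number as a block (0.0530). At day 35 it was lost without cone replicate 2 (0.0666) or rod replicate 1 (0.0849), with voom quality weights (0.154) or with the compared libraries only (0.0685). At day 35 neuron markers were higher in cone cells too, with 5 of 6 called (12.3% of all genes), and their part in the Tnr difference was not tested.

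The windows before the starts of Thbs2 and Tnc, the matricellular genes with the largest log2 fold changes in favour of cone cells at day 12, are shown in the same form as those above.
Thbs2, chr17:14694263-14694512, minus strand: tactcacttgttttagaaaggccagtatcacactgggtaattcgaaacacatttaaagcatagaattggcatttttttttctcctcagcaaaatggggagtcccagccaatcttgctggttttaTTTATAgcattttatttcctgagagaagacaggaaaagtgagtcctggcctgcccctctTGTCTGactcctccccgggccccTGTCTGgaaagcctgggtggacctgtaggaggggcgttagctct
Tnc, chr4:64047016-64047265, minus strand: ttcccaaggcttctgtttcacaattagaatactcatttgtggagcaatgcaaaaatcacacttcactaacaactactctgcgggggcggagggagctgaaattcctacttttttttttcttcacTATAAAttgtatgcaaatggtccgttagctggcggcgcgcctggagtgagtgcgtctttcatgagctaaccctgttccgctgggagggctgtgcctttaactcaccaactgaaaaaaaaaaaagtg

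In the Thbs2 window CAGACA matched on the reverse strand at positions -67 and -44 and TATAAA on the reverse strand at -126. In the Tnc window TATAAA matched on the forward strand at position -126. AGGTCA had 0 matches in either, and CAGACA lay in the window of another RefSeq start of Tnc.

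**Figure D4:**
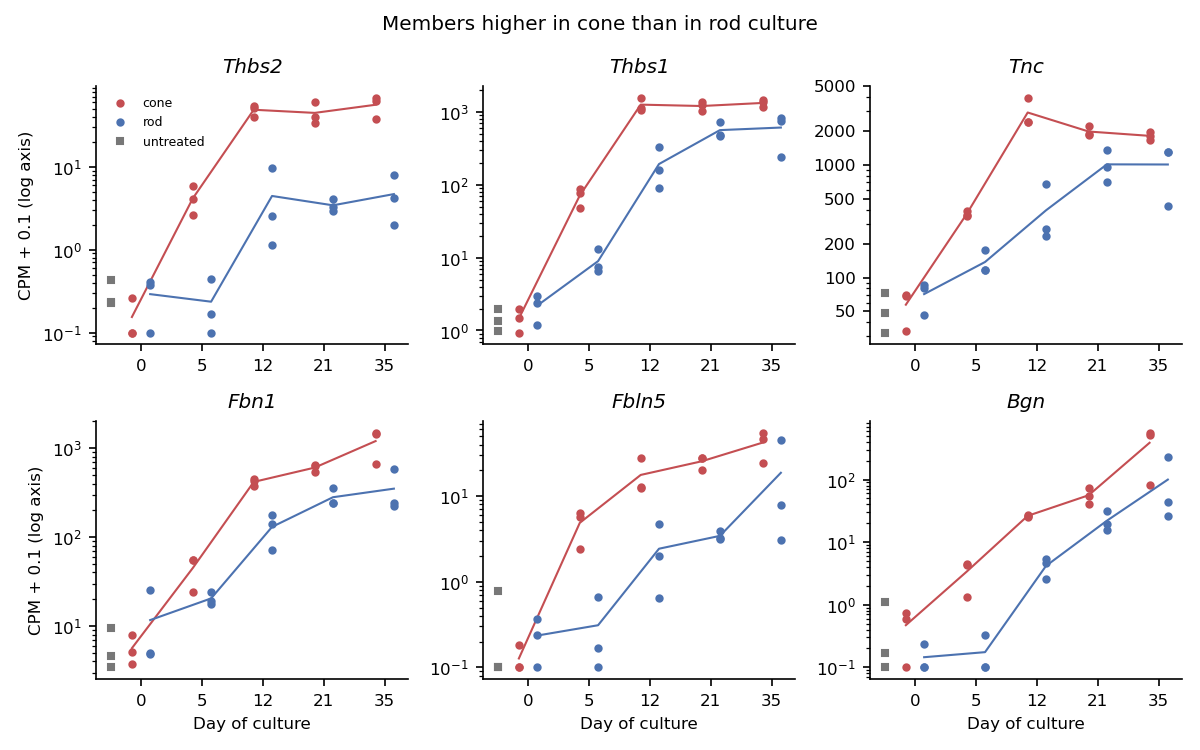
CPM + 0.1 (log axis) of Thbs2, Thbs1, Tnc, Fbn1, Fbln5 and Bgn by day, with points for single libraries and lines through the group means of cone (red) and rod (blue) cells and grey squares for untreated cells. From day 5 to day 35 the cone line lies above the rod line for Thbs2 and Thbs1, and the rod points of day 35 scatter most for Fbln5 and Bgn.

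Periostin went the other way. At day 0 Postn was called lower in cone primed cells (log2 fold change -3.71 ± 0.89, adjusted p = 0.00956), where the values are given above. It was called again at day 12, with 13.5, 14.2 and 11.8 CPM in cone and 91.3, 62.3 and 156 CPM in rod libraries (log2 fold change -2.97 ± 0.77, adjusted p = 0.0123). The day 12 cone libraries agreed closely and lay under every rod library. At day 35 Postn had 416, 78.5 and 576 CPM in cone against 104, 149.9 and 111 CPM in rod libraries, with 2 cone libraries above and 1 below the rod range, and was not called (adjusted p = 0.162). The difference changed with day (adjusted p = 0.0154). The calls were lost without replicate 3 of cone or of rod at day 0 (adjusted p 0.0631 and 0.207) and at day 12 (0.0672 and 0.0592), and with voom quality weights at day 0 (0.177). The call of the change with day was lost without rod day 35 replicate 3 (0.0503) or with voom quality weights (0.0641). Sparcl1 (SPARC-like 1, a synapse-promoting protein of astrocytes) was called lower in cone cells at day 35 (log2 fold change -2.62 ± 0.72, adjusted p = 0.0162) on values of 119, 32.3 and 117 CPM against 104, 1401 and 139.6 CPM. That difference came from 1 library: the other 2 rod values lay within the cone range, and without rod replicate 2 the adjusted p was 0.701. It was also lost without cone replicate 2 (0.0809), with voom quality weights (0.0793) and with the compared libraries only (0.167).

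Among elastic fibre and microfibril genes, 8 of 13 were called over the mean of days (27.8% of all genes), 5 higher in cone cells (Fbln5, Fbn1, Ltbp2, Fbln2 and Efemp2) and 3 lower (Efemp1, Ltbp1 and Ltbp3). Fbn1 (fibrillin 1, the main microfibril subunit; 20.1% of its exon bases are shared with another gene) had 447, 373 and 431 CPM in cone and 179, 71.0 and 140.3 CPM in rod libraries at day 12 (log2 fold change 1.68 ± 0.47, adjusted p = 0.0214). At day 35 it had 1439, 666 and 1495 CPM against 239.8, 587 and 223 CPM (log2 fold change 1.78 ± 0.47, adjusted p = 0.0126). Its cone libraries lay above its rod libraries at both days, but cone replicate 2 and rod replicate 2 of day 35 came near each other. The call was lost at day 12 without cone replicate 1 or 3 or rod replicate 2 or 3 (adjusted p 0.0560 to 0.105), at day 35 without cone replicate 3 or rod replicate 1 or 3 (0.0552 to 0.0827). It was also lost with the compared libraries only at both days (0.0536 and 0.0522).

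Fbln5 (fibulin 5), which brings elastin and cross-linking enzymes to microfibrils, had 5.68, 2.31 and 6.33 CPM in cone and 0.562, 0 and 0.0694 CPM in rod libraries at day 5 and exceeded rod cells at least 18.9-fold (adjusted p = 0.00667). At day 12 the values were 27.6, 12.5 and 12.6 CPM against 4.57, 0.546 and 1.87 CPM (log2 fold change 2.91 ± 0.74, adjusted p = 0.0105). At day 21 they were 27.9, 20.1 and 28.1 CPM against 3.78, 3.09 and 3.13 CPM (log2 fold change 2.93 ± 0.72, adjusted p = 0.00922). The groups did not overlap at any of these 3 days. At day 35 rod replicate 2 reached the cone range (55.1, 24.4 and 46.6 CPM against 2.97, 45.04 and 7.88 CPM), and the gene was not called (adjusted p = 0.267). Its day 12 call was lost without cone replicate 1 or rod replicate 2 or 3 (adjusted p 0.0548 to 0.0563) and with the compared libraries only (0.0993).

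Fbln2, a fibulin of basement membranes and elastic fibres, separated late. It had 24.3, 30.4 and 31.7 CPM in cone and 5.10, 8.03 and 10.2 CPM in rod libraries at day 21 (log2 fold change 1.88 ± 0.51, adjusted p = 0.0199) and 23.0, 20.3 and 34.0 CPM against 3.14, 7.36 and 7.29 CPM at day 35 (log2 fold change 2.11 ± 0.52, adjusted p = 0.00749). At day 5 its rod libraries had the higher mean (6.12 ± 3.84 CPM against 2.14 ± 0.928 CPM, SD), without a call (adjusted p = 0.0866), and the difference changed with day (adjusted p = 0.00365). Ltbp2, a microfibril protein that does not bind TGF-beta, was higher in cone cells at day 5 (log2 fold change 2.54 ± 0.65, adjusted p = 0.0134) and day 12 (log2 fold change 2.11 ± 0.34, adjusted p = 0.000197), and by day 35 its means were 195 ± 53.5 and 129.9 ± 8.42 CPM. Efemp2, needed for elastic fibre assembly, was called at day 12 (log2 fold change 0.61 ± 0.18, adjusted p = 0.0262). Calls were lost for Fbln2 at day 21 without cone replicate 2 or 3 or rod replicate 1 or 2 (adjusted p 0.0536 to 0.0843). Its other calls were lost at day 35 without rod replicate 1 (0.0584) and over the mean of days without cone day 5 replicate 1 (0.0589) or cone day 35 replicate 3 (0.0502). They were lost for Ltbp2 at day 5 without cone replicate 1 (0.113) or rod replicate 2 (0.0790) and with voom quality weights (0.115). That of Efemp2 at day 12 was lost without cone replicate 3 or rod replicate 2 or 3 (0.0600 to 0.166) and with the compared libraries only (0.229).

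Efemp1 was the elastic fibre gene most often lower in cone cells. At day 0 it had 2.14, 1.13 and 1.26 CPM in cone primed and 5.83, 2.82 and 7.36 CPM in rod primed libraries (log2 fold change -1.87 ± 0.42, adjusted p = 0.00552). At day 5 it had 4.74, 3.22 and 1.45 CPM against 16.1, 8.15 and 14.9 CPM (log2 fold change -2.05 ± 0.32, adjusted p = 0.000131). At day 12 it had 22.5, 17.0 and 19.0 CPM against 67.7, 50.3 and 63.6 CPM (log2 fold change -1.64 ± 0.28, adjusted p = 0.000307). At day 21 it had 56.7, 43.7 and 48.9 CPM against 88.3, 109 and 103 CPM (log2 fold change -1.01 ± 0.27, adjusted p = 0.0190). Every cone library lay below every rod library at each of these days, and the mean of each condition was higher at each later day. Over the mean of days the difference was -1.37 ± 0.14 (adjusted p = 4.38e-08). At day 35 the values were 99.5, 107 and 110 CPM in cone and 239, 141 and 157 CPM in rod libraries, again without overlap, and the gene was not called (adjusted p = 0.0634). The calls were lost at day 0 without rod primed replicate 3 (adjusted p 0.0714) or with voom quality weights (0.0502), and at day 21 without cone replicate 2 or 3 or rod replicate 2 or 3 (0.0610 to 0.0736).

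The TGF-beta tethering genes Ltbp1 and Ltbp3 were also lower in cone cells. Ltbp1 was called at day 0 (log2 fold change -1.34 ± 0.33, adjusted p = 0.0109). It was called again at day 21, with 137, 129.7 and 124 CPM in cone and 265, 279 and 268 CPM in rod libraries (log2 fold change -1.06 ± 0.29, adjusted p = 0.0221), and at day 35, with 162, 93.2 and 155 CPM against 207, 384 and 254 CPM (log2 fold change -1.04 ± 0.29, adjusted p = 0.0183). Its rod libraries of day 21 lay close together and above every cone library, a 2.08-fold difference. Ltbp3 was called at day 0 (log2 fold change -1.61 ± 0.20, adjusted p = 5.36e-06) and day 5, with 56.5, 37.8 and 53.6 CPM against 105, 79.1 and 104 CPM (log2 fold change -0.96 ± 0.19, adjusted p = 0.00124), and not later (adjusted p 0.400, 0.158 and 0.129). Its difference changed with day (adjusted p = 0.00715). The Ltbp1 call was lost at day 0 without replicate 3 of cone primed (adjusted p 0.0754) or rod primed cells (0.139), at day 21 without any 1 of the 3 cone libraries or rod replicate 2 or 3 (0.0504 to 0.0776), and at day 35 without replicate 2 of cone (0.108) or rod cells (0.129) and with the compared libraries only (0.0537). Fbn2, Eln (elastin), Emilin1, Fbln1 and Mfap2 were not called in cone against rod cells at any day.

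Fibronectin differed once. At day 5 Fn1 had 183, 126 and 165 CPM in cone and 214, 260.4 and 481 CPM in rod libraries and was called lower in cone cells (log2 fold change -1.01 ± 0.31, adjusted p = 0.0368). The third rod library was the highest, and the call was lost without it (adjusted p 0.283) or without any 1 of the 3 cone libraries (0.0804 to 0.189). From day 12 on every library of both conditions had at least 1144 CPM of Fn1, with a log2 fold change of 0.10 ± 0.30 at day 35 (adjusted p = 0.884).

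The small leucine-rich proteoglycans split. Averaged over days, Bgn and Fmod were called higher in cone cells and Prelp, Ogn and Dcn lower (27.8% of all genes were called). The summed level at day 35 was 1288 ± 370 CPM in cone, against 1070 ± 238 CPM in rod libraries. Prelp kept its priming difference at day 5, with 75.5, 69.9 and 71.1 CPM in cone and 217, 211 and 231 CPM in rod libraries (log2 fold change -1.61 ± 0.21, adjusted p = 1.45e-05). At day 12 it had 202, 222 and 211 CPM against 448, 234 and 380.2 CPM (log2 fold change -0.74 ± 0.21, adjusted p = 0.0206), with the lowest rod library just above the highest cone library. At day 21 the libraries overlapped, with 434, 432 and 364 CPM in cone and 517, 299 and 375 CPM in rod libraries, and the gene was not called (adjusted p = 0.928). The difference thus narrowed from -3.19 ± 0.23 at day 0 (adjusted p = 3.11e-10) to -0.24 ± 0.21 at day 35, and its change with day had an adjusted p of 6.16e-07, the smallest among the matrix genes. The day 12 call was lost without cone replicate 1 or 3 or rod replicate 1 or 3 (adjusted p 0.0746 to 0.0975) and with the compared libraries only (0.163).

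Bgn (biglycan), a dermatan sulphate proteoglycan that binds TGF-beta, had 4.41, 1.22 and 4.24 CPM in cone and 0.225, 0 and 0 CPM in rod libraries at day 5, where the rod group held 2 counts and the ratio of scaled counts was 61.0 (95% interval 16.6 to 508). At day 12 it had 27.2, 26.2 and 25.2 CPM against 5.21, 2.46 and 4.54 CPM (log2 fold change 2.69 ± 0.69, adjusted p = 0.0121), and its cone libraries agreed closely. By day 35 the libraries overlapped, with 562, 82.3 and 514 CPM in cone and 25.6, 230 and 43.5 CPM in rod libraries (log2 fold change 1.96 ± 0.60, adjusted p = 0.0316). The call at day 5 (adjusted p = 0.0262) was lost without cone replicate 1 or 3 or any 1 rod library (0.0650 to 0.101) and with voom quality weights (0.318), and that at day 12 without rod replicate 2 (0.0631). The day 35 call was lost without cone replicate 1 or 3 or rod replicate 1 or 3 (0.122 to 0.154), with the compared libraries only (0.260), with DESeq2 (0.148) and with the replicate number as a block (0.0602).

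Fmod, which binds collagen fibrils, had 36.7, 36.8 and 34.1 CPM in cone and 9.65, 11.1 and 6.00 CPM in rod libraries at day 21 (log2 fold change 2.01 ± 0.51, adjusted p = 0.0139), and it was also called at day 12 (log2 fold change 2.51 ± 0.57, adjusted p = 0.00540). Lum (lumican), the collagen-spacing proteoglycan of cornea and other connective tissue, stayed near the floor until day 21 and then had 48.1, 7.47 and 59.3 CPM in cone and 3.82, 4.53 and 2.52 CPM in rod libraries at day 35 (log2 fold change 3.41 ± 0.67, adjusted p = 0.00103). Its cone replicate 2 was far below the other cone libraries and still above every rod library, and the difference changed with day (adjusted p = 0.00665). The Fmod call at day 21 was lost without rod replicate 3 (0.0822) and that at day 12 with the compared libraries only (0.138), and the Lum change with day was lost with voom quality weights (0.0960).

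Podn, the gene that had fallen with rod priming, was higher in cone primed than in rod primed cells at day 0 (log2 fold change 3.08 ± 0.45, adjusted p = 4.84e-05). By day 5 cone cells had come down to 3.67, 2.37 and 4.53 CPM, against 2.02, 3.22 and 3.26 CPM in rod cells, without a call (adjusted p = 0.747), and the change of the difference with day had an adjusted p of 0.00816. Ogn had means of 26.0 ± 5.37 CPM in cone and 46.6 ± 34.0 CPM in rod libraries at day 12 and was called over the mean of days only (log2 fold change -0.97 ± 0.30, adjusted p = 0.0197). Dcn was called lower over the mean of days (adjusted p = 0.0451), and cone cells were at 0 counts at day 5. At day 35 its levels were alike, with 12.55 ± 9.49 CPM per kb in cone and 12.24 ± 9.62 CPM per kb in rod libraries (mean ± SD). Leaving out any 1 of 14 of the 24 libraries ended the call (adjusted p 0.0534 to 0.0905), as did voom quality weights (0.110), the compared libraries only (0.0677) and the replicate number as a block (0.0624). Aspn (asporin) was not called, with 12.6, 1.803 and 16.1 CPM in cone and 0.935, 17.1 and 0.775 CPM in rod libraries at day 35. There 1 rod library stood level with the highest cone library.

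Brevican was lower in cone cells at 3 days. Bcan had 0.881, 2.02 and 1.15 CPM in cone primed and 25.8, 23.2 and 24.8 CPM in rod primed libraries at day 0 (log2 fold change -4.11 ± 0.62, adjusted p = 7.72e-05). At day 5 it had 27.7, 13.6 and 15.9 CPM in cone against 145, 118 and 194 CPM in rod libraries (log2 fold change -3.00 ± 0.47, adjusted p = 0.000115). At days 12 and 21 the libraries overlapped or came close, with means of 57.4 ± 34.3 and 101 ± 44.0 CPM in cone and 117 ± 34.8 and 155 ± 56.7 CPM in rod libraries (adjusted p 0.142 and 0.434). At day 35 they were apart again, with 57.3, 22.0 and 73.4 CPM in cone and 266, 144 and 261 CPM in rod libraries (log2 fold change -2.13 ± 0.45, adjusted p = 0.00187). The difference changed with day (adjusted p = 0.00884, or 0.138 with voom quality weights). Ncan, which fell in both conditions, was higher in cone cells at day 21, with 5.12, 8.65 and 6.96 CPM against 1.93, 2.32 and 2.15 CPM (log2 fold change 1.71 ± 0.39, adjusted p = 0.00499).

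Acan, which encodes aggrecan, the lectican of cartilage and perineuronal nets, was called lower in cone cells at day 12 on values of 0.117, 0.311 and 0.0773 CPM in cone and 0.928, 64.5 and 3.46 CPM in rod libraries. Cone cells were under the floor, so Acan was at least 84.5-fold lower (adjusted p = 0.00664). The size rested on rod replicate 2, without which the adjusted p was 0.144, and with the compared libraries only it was 0.140. Vcan, the versican gene of early loose matrix, was not called at any day and had 152 ± 51.0 CPM in cone and 94.8 ± 18.6 CPM in rod libraries at day 35 (SD, n = 3). Summed over the 4 lecticans, the level was 119 ± 20.8 CPM in untreated cells, 208 ± 76.8 CPM in cone and 323 ± 77.5 CPM in rod libraries of day 35.

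**Figure D5:**
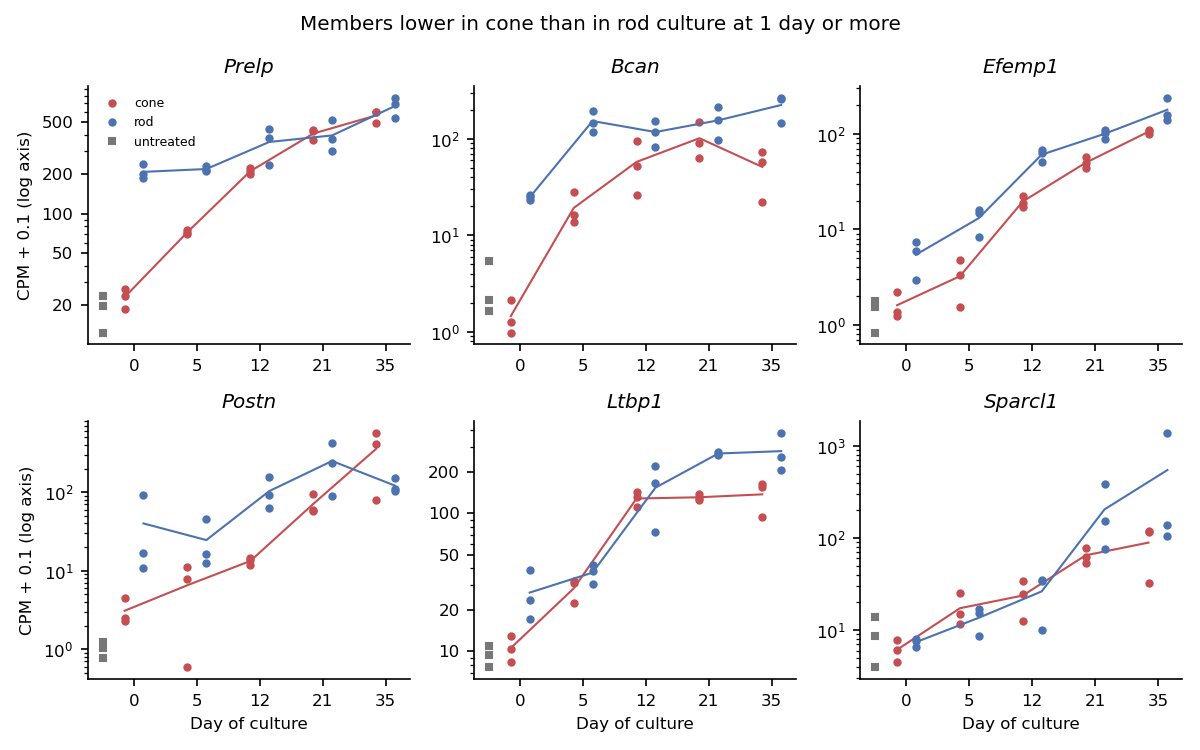
CPM + 0.1 (log axis) of Prelp, Bcan, Efemp1, Postn, Ltbp1 and Sparcl1 by day, with points for single libraries, lines through the group means of cone (red) and rod (blue) cells and grey squares for untreated cells. The Prelp lines start apart and meet by day 21, the Efemp1 rod line lies above the cone line at each day, and 1 rod library of day 35 stands apart in Sparcl1.

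Over the mean of days the basement membrane genes Nid1, Lamb1 and Lamc1 were called higher in cone cells, and the other 4 were not called (27.8% of all genes were called). The Lamb1 call was lost without cone day 12 replicate 3 (adjusted p 0.0551). At day 5 Lama2, the laminin alpha 2 chain, had 33.9, 23.8 and 22.7 CPM in cone and 80.9, 68.6 and 65.5 CPM in rod libraries and was lower in cone cells (log2 fold change -1.42 ± 0.34, adjusted p = 0.00759). At day 12 Nid1 (nidogen 1, which links laminin and collagen networks) had 382, 364 and 508 CPM against 166, 70.9 and 143 CPM and was higher (log2 fold change 1.73 ± 0.43, adjusted p = 0.00934). So were Lamb1 (log2 fold change 1.03 ± 0.32, adjusted p = 0.0346) and Lamc1 (log2 fold change 0.78 ± 0.23, adjusted p = 0.0315), the beta 1 and gamma 1 laminin chains. The Lamc1 libraries overlapped. At days 0, 21 and 35, 0 of 7 were called (7.27%, 9% and 12.3% of all genes). Nid1 at day 35 had 947, 414 and 792 CPM in cone and 260, 1121 and 629 CPM in rod libraries. Nid2, Lama1 and Lama4 were not called at any day. The difference changed with day for Lama2 (adjusted p = 0.0343) and Lamb1 (adjusted p = 0.0496). The day 12 calls were lost without cone replicate 3 or rod replicate 2 (Nid1 0.0505 to 0.0600, Lamb1 0.102 to 0.230 and Lamc1 0.0880 to 0.256, the last pair also without rod replicate 3) and with the compared libraries only (0.0506, 0.203 and 0.346). The changes with day were lost without any 1 of 10 libraries for Lama2 (0.0510 to 0.113) and of 23 for Lamb1 (0.0503 to 0.183). They were also lost with the compared libraries only (0.0524 and 0.0603) and, for Lamb1, with voom quality weights (0.126).

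Of 82 other matrix and matrix receptor genes on lists, 71 were tested. Between cone and rod cells 13 were called at day 0 (7.27% of all genes), of which 5 were higher in cone cells, and 18 at day 5 (9.28% of all genes), of which 11 were higher. The later counts were 24 (20 higher) on day 12, 15 (14 higher) on day 21 and 20 (16 higher) on day 35, against 10.1%, 9% and 12.3% of all genes. For the mean of days 32 were called, or 45.1% against 27.8% of all genes, with 27 higher and 5 lower in cone cells. The largest differences in their lists were Lama3, a laminin chain of epithelial basement membrane (log2 fold change 4.13 ± 0.26, adjusted p = 4.16e-12), Itga11, a collagen-binding integrin (log2 fold change 3.46 ± 0.38, adjusted p = 7.03e-08), Lox, the elastin and collagen cross-linking oxidase (log2 fold change 2.56 ± 0.18, adjusted p = 3.67e-11), and Has2, a hyaluronan synthase (log2 fold change 1.71 ± 0.17, adjusted p = 1.07e-08). Matrix Gla protein (Mgp) led the other matricellular genes (log2 fold change 3.11 ± 1.00, or 1.98 with a day at the floor set to its bound, adjusted p = 0.0229). Lower in cone cells were Optc, the opticin gene of the vitreous (log2 fold change -1.21 ± 0.20, adjusted p = 2.95e-05), and Hmcn1, a fibulin family gene (log2 fold change -1.005 ± 0.28, adjusted p = 0.00815). Of the brain chondroitin sulphate proteoglycans 0 of 3 were called. By list, cross-linking enzymes had 5 of 8 called (4 higher, 1 lower), matrix receptors 10 of 19 (9 higher, 1 lower) and basement membrane genes 5 of 8, all higher.

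Markers of mesenchyme, and up to day 12 of contractile cells, were also higher in cone cells. Averaged over days, 27.8% of all genes were called, 15.6% higher and 12.2% lower. Of 10 mesenchyme markers tested 8 were called, 6 higher, with Col1a1 first (log2 fold change 3.57 ± 0.31, adjusted p = 1.67e-09), and 2 lower (Foxd1 and Foxc1). The mesenchyme sum was 439 to 580.4 CPM in cone and 110.5 to 215 CPM in rod libraries at day 12, 813 to 959 and 258 to 466 CPM at day 21, and 728 to 4042 and 338 to 814 CPM at day 35. The lowest cone sum of day 35 was that of replicate 2 (3279 and 4042 CPM in the others), also the lowest cone library in Bgn, Lum, Postn, Fbn1 and Aspn. It was the highest in Fn1 and Tnc. The highest rod sum was that of replicate 2 (436 and 338 CPM in the others), also the highest rod library in Bgn, Fbln5 and Aspn. Smooth muscle and pericyte markers had 4 of 6 called, all higher, with Cnn1 first (log2 fold change 1.76 ± 0.31, adjusted p = 0.000207). Their sums were 1317 to 2107 CPM in cone and 224 to 824 CPM in rod libraries at day 12, and Kcnj8 was at 0 in both conditions up to day 21. At days 21 and 35, 0 of 6 were called (9% and 12.3% of all genes). The day 35 sums overlapped, with 1501 to 2037 CPM in cone against 777 to 1745 CPM in rod libraries. Microglia and macrophage markers had 4 of 5 called, all higher, with Tmem119 first (log2 fold change 4.40 ± 0.58, adjusted p = 6.26e-06) and sums of 53.2 to 243 and 4.65 to 7.76 CPM at day 35. Their part in the matrix gene differences was not tested.

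Muller glia markers differed with rod priming and less evenly later. In rod primed against untreated cells 4 of 7 were called, all higher (10.3% of all genes, 6.71% higher). The sum was 945 to 1242 CPM in rod primed, 378 to 437 CPM in untreated and 379.5 to 525 CPM in cone primed cells, where Abca8a was at 0. Over the mean of days 4 of 7 were called in cone against rod cells (27.8% of all genes), 3 lower, with Abca8a first (log2 fold change -1.48 ± 0.23, adjusted p = 2.63e-05), and Aqp4 higher (log2 fold change 0.99 ± 0.34, adjusted p = 0.0311). The median log2 fold change of the 7 was 0.02 over the mean of days, and by day the calls were 1 higher and 2 lower at day 5, 3 lower at day 12, 2 higher at day 21 and 2 lower at day 35. Of all genes 9.28%, 10.1%, 9% and 12.3% were called at those days. The sum at day 35 was 2873 to 3320 CPM in cone and 3746 to 5210 CPM in rod libraries. The part of Muller glia in the differences of Prelp, Bcan, Efemp1, Ltbp1 and Ltbp3 was not tested.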

How the data were processed

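Total RNA of 33 mouse retinal progenitor libraries had been extracted and prepared with Takara low-input kits, per the labels. The deposited tables hold whole-number read counts for 47729 genes with 5 summary lines, which were left out, and 26.9% to 34.9% of counted reads lay in genes. A separate set of tables gives TPM, FPKM and coverage, per the file headers. The submitters' processing notes list HISAT2, StringTie, HTSeq and the build GRCm38, without versions or roles, and the strand setting is not given in the sources used here. The TPM values the authors deposited placed 85.0% to 95.9% of each library in 100 genes, and 484 of 1257 pairs of a matrix gene and a library with counts were at a TPM of 0. TPM therefore served only as an alternative, and levels between genes were compared as CPM per kilobase of merged GENCODE M21 exon, in which 30 of the 41 genes have the position of the deposited tables.

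Libraries were grouped as labelled. Genes were filtered with filterByExpr by group (minimum count 10; 18150 of 32488 genes with counts kept), scaled by TMM and fitted in 1 quasi-likelihood model over 11 groups without robust dispersion (edgeR 4.0.16, limma 3.58.1, R 4.3.3). The contrasts were cone minus rod at each day and over the mean of days 5 to 35, primed minus untreated cells, and later days minus primed cells, 17 comparisons with an F test on 4 degrees of freedom for the change with day. Alternatives were RLE scaling, no filter, DESeq2 1.42.0, voom with quality weights, a model of the compared libraries only, the replicate number as a block, limma on log2(TPM + 1), and leaving out each library. The steps were tested on simulated data. Replicate pairs differed beyond sampling noise, so no library was counted as a duplicate. Members and lists were chosen with earlier results of these data known. Called members are named or counted in each comparison of cone with rod and of priming. Every library is given for called members without overlap, up to 4 in each direction by log2 fold change, and for the most abundant of each role. At day 35 the 3 largest rises and falls against primed cells are named, and from other lists the largest called difference over the mean of days. Folds against a group under 3 counts' worth of CPM are bounds, and with 1 to 3 counts a ratio with its 95% interval is given.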

Additional observations from a re-analysis of the deposited data

Results flagged for a closer look

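Each of these 13 genes drew attention because its difference between cone and rod cells changed with day, by edgeR's F test over the 5 days (9.22% of all genes tested passed the same test). The cone minus rod log2 fold changes at days 0, 5, 12, 21 and 35 are given in that order.

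Differences that were largest below 0 early were those of Prelp (-3.19, -1.61, -0.74, 0.05 and -0.24; adjusted p = 6.16e-07) and Ltbp3 (-1.61, -0.96, -0.28, -0.42 and -0.43; adjusted p = 0.00715). Bcan had -4.11, -3.00, -1.04, -0.62 and -2.13 (adjusted p = 0.00884), with a second low value at day 35. Postn went from -3.71 and -1.91 through -2.97 and -1.83 to 1.56 (adjusted p = 0.0154). Podn alone among them began above 0, with 3.08, 0.29, 0.61, 0.01 and 0.73 (adjusted p = 0.00816).

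Differences that peaked at day 5 or 12 were those of Thbs1 (-0.64, 3.04, 2.71, 1.10 and 1.12; adjusted p = 0.00544) and Tnc (-0.32, 1.42, 2.89, 0.97 and 0.84; adjusted p = 0.00609). Lamb1 had -1.10, 0.03, 1.03, 0.35 and 0.50 (adjusted p = 0.0496), and Efemp2 had -0.58, -0.04, 0.61, 0.51 and 0.49 (adjusted p = 0.0156). Lama2 instead had its lowest value at day 5 and moved from -0.36 and -1.42 to 0.35, 0.33 and 0.44 (adjusted p = 0.0343). Ltbp2 had 2.54, 2.11, 0.12 and 0.59 from day 5 on, with both groups under the floor at day 0, and an adjusted p of 0.0198, or 0.700 with voom quality weights.

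Fbln2 and Lum moved towards cone cells late. Fbln2 had -1.39, -1.55, 0.76, 1.88 and 2.11 (adjusted p = 0.00365), and Lum had 2.07 at day 21 and 3.41 at day 35 (adjusted p = 0.00665), after days near or under the floor.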

How the results depend on the processing

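Of 111 results for single genes, all 111 kept their direction and side of the threshold with RLE scaling and with no filter, 110 with DESeq2, 106 with the replicate block, 95 with voom quality weights and 89 with the compared libraries only. With limma on log2(TPM + 1) 12 did so, 87 were no longer called and 12 reversed, and many of the genes are at a TPM of 0 in libraries that hold counts. The reversed TPM values were -0.0349 for Ltbp2, -0.237 for Bgn and 0.0162 for Lama2 at day 5, -0.537 for Efemp2 and -0.293 for Fmod at day 12, -0.00893 at day 21 and -0.00616 at day 35 for Tnr, -0.229 for Efemp2 and -0.165 for Fmod over the mean of days, -0.101 for Ltbp1 and -0.0518 for Ltbp3 with rod priming, and -0.129 for Ogn in cone cells at day 35 against primed cells.

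Counts of called genes under TPM were 1, 0, 3, 0 and 0 for cone against rod at days 0, 5, 12, 21 and 35, 6 over the mean of days, 1 with rod priming, 5, 10, 13 and 16 in cone and 2, 7, 13 and 12 in rod cells against primed cells at days 5, 12, 21 and 35, and 0 for the change with day. Under TPM 0.149% to 7.03% of all genes were called in these comparisons. The compared libraries only gave 6 at day 12 (2.27% of all genes) and 15 at day 21 (7.97%). Voom quality weights gave 16 at day 21 (20.4%) and 20 at day 35 (15.6%). DESeq2 gave 16 with rod priming (13.15%) and 20 for the change with day (15.8%). With voom quality weights the matrix share came nearer that of all genes at day 0, with 8 of 40 called (17.6% of all genes). So it did with rod priming, with 10 of 40 (20.8%), and for the change with day, with 12 of 40 (26.2%). The cause was not tested.

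Leaving out 1 library gave 4 to 8 calls at day 0, 9 to 11 at day 5, 8 to 18 at day 12, 4 to 6 at day 21, 5 to 13 at day 35 and 22 to 26 over the mean of days. It gave 0 to 0 with cone priming, 7 to 12 with rod priming, 20 to 24, 30 to 32, 34 to 36 and 36 to 37 in cone and 9 to 13, 29 to 32, 33 to 36 and 34 to 37 in rod cells against primed cells, and 11 to 21 for the change with day, where 21 came without rod day 12 replicate 1. Of the single-gene results, 39 of 111, in 23 of 30 genes, lost their call without some library.

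Deviations of same-numbered cone and rod libraries had correlations between -0.312 and 0.607, and at no day did all 3 pass 0.1, so the numbers are not taken to pair the libraries. With the replicate number as a block the counts were 7, 12, 16, 8 and 10 (5 higher, 5 lower) for cone against rod at days 0, 5, 12, 21 and 35, 23 over the mean of days and 11 with rod priming. Of all genes 7.51% to 12.4% were called at single days, 28.1% over the mean of days and 10.9% with rod priming. Genes near the floor of 0.174 to 0.407 CPM, such as Mfap5, allowed no comparison at this depth.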
